A study of Carassius auratus with 9 samples.

Results

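The genes described here encode the proteins of the cytosolic ribosome in back skin of celestial goldfish (Carassius auratus), a fancy breed with upturned eyes. They are all rows of the deposited gene table whose product name begins with 40S or 60S ribosomal protein, leaving out kinases and mitochondrial proteins. This gave 195 of 74297 rows. Rows were grouped by product name after removing "-like", which gave 74 products, 30 of the small 40S subunit and 44 of the large 60S subunit. Rows of the same product are called copies. The rule used names and no measured value, but 7 copies were listed with it after earlier results of these data were known: LOC113038961, LOC113064418 and LOC113090293 (all L35), LOC113079992 (L23a), LOC113112543 (S24), LOC113117491 (L13a) and LOC113074392 (L38).

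RNA sequencing compared brown, yellow and white back skin of fish aged 4 months, with 3 libraries of each color, which the labels call biological replicates. The labels give no genotype, sex, treatment or pooling of fish. Skin color is the only factor, and the labels do not say whether fish of the 3 colors shared parents or a tank.

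A ribosome is built from ribosomal RNA and nearly equal numbers of each ribosomal protein, and the genes for these proteins are transcribed at high and nearly matched levels in growing and renewing tissues such as epidermis. The 40S subunit reads the messenger RNA, and the 60S subunit joins the amino acids and holds the tunnel through which the new chain leaves. Goldfish descend from an allotetraploid ancestor that kept the chromosome sets of both parent species, so many genes lie in partner copies on chromosomes whose numbers are 25 apart in the reference assembly.

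Values are FPKM, fragment counts divided by gene length and by a scaling total, as the authors deposited them. The libraries held 13772601 to 17359648 reads on the table, recovered from the FPKM values, of which 1393841 to 3127827 fell on the ribosomal protein rows. The scaling total was not the sequencing depth: it was 0.675 to 1.39 times those reads, and the median-of-ratios size factor, a library's median ratio to the gene averages, was 1.02 for the deposited values of all 9 libraries. The values as deposited thus already had equal median-of-ratios scale, and summed FPKM ranged widely, between 407297 and 1159117, and was highest in brown 3, yellow 3 and white 3. For that reason the share of a copy in its product and the share of a product in the library are given beside FPKM. In bulk tissue, fewer cells of a type and less RNA per cell cannot be told apart. Keratin rows, which mark epidermis, were present in all 9 libraries at 0.657% to 4.37% of summed FPKM. Rows of a skeletal muscle list took 6.89%, 2.31% and 18.0% in brown 1, 2 and 3, 0.240%, 1.02% and 24.8% in yellow 1, 2 and 3, and 2.51%, 15.0% and 31.7% in white 1, 2 and 3. Brown 3 stood apart from the other 8 libraries in which gene copies it held, and brown 2 and yellow 3 in the mix of products, as described with the results that rest on them.

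Ribosomal protein rows together took 28.3%, 37.5% and 33.6% of summed FPKM in brown 1, 2 and 3, 27.8%, 23.1% and 30.4% in yellow 1, 2 and 3, and 26.4%, 21.5% and 23.5% in white 1, 2 and 3. All 3 brown libraries lay above all 3 white ones, while yellow overlapped both. The means were 33.2% ± 4.64 in brown, 27.1% ± 3.73 in yellow and 23.8% ± 2.48 in white (SD, n = 3 each). Counted in reads rather than per length, the share was 16.3% ± 3.26 in brown, 12.2% ± 4.06 in yellow and 10.5% ± 1.90 in white. By reads the brown libraries again lay above the white ones, 12.5% to 18.5% against 8.35% to 12.03%. The muscle list held high and low values in every color, with a mean of 9.07% of summed FPKM in brown and 16.4% in white. With its rows left out of the total, the share was 30.4% to 41% in brown, 23.3% to 40.5% in yellow and 25.3% to 34.4% in white, and the colors overlapped.

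**Figure D1:**
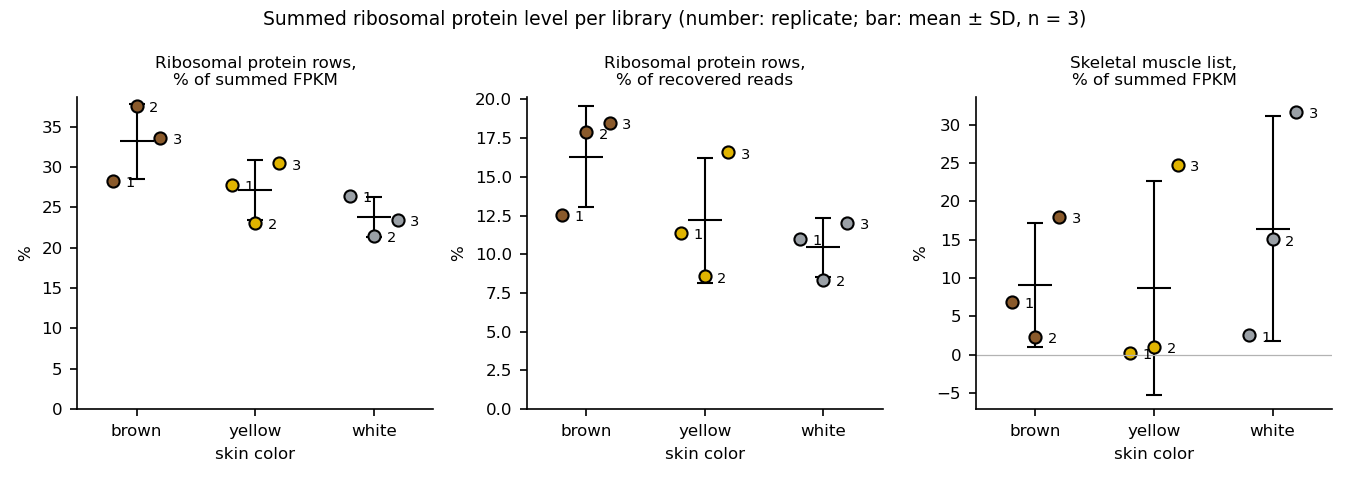
Left, summed FPKM of the 195 ribosomal protein rows as a percent of all summed FPKM; middle, the same in recovered reads; right, the skeletal muscle list as a percent of summed FPKM. Points are libraries with their replicate number, bars are mean ± SD (n = 3); the brown points lie above the white points in the left and middle panels, and muscle spreads over 0.240% to 31.7% within colors.

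The small and large subunits kept a fixed proportion. Rows of the 40S subunit made up 43.2% to 44.1% of the ribosomal protein sum in brown, 43.3% to 44.5% in yellow and 42.9% to 44.3% in white. The colors overlapped on this measure.

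No single copy or product was called different between colors. Each of the 27420 rows with at least 1 FPKM in at least 3 libraries was tested with limma-trend on log2(FPKM + 1), a scale that understates changes of low genes, with Benjamini-Hochberg adjustment over all rows and a threshold of 0.05. Of the 195 ribosomal protein rows, 186 passed the filter. In brown against white, 0 of 186 were called, against 0.0365% of all rows tested. In yellow against white, 0 were called against 0.0438% of all rows, which was 12 rows, or 6 with a replicate block, and in brown against yellow 0 against 0% of all rows. At an unadjusted p under 0.05, limma-trend held 3, 2 and 1 of the 186 rows in these 3 comparisons, 1.61%, 1.08% and 0.538%, against 5.72%, 3.50% and 1.67% of all rows. The voom test of limma on the recovered reads called 0 as well, with 3, 2 and 1 rows at an unadjusted p under 0.05. It kept the scaling totals of the deposited values, so it does not check that scale. With FPKM rescaled to an equal sum per library (TPM), limma-trend called 0 of 188 rows. It then held 10, 3 and 2 rows at an unadjusted p under 0.05. The share of all rows at that level was not counted for voom or TPM.

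Most copies were nevertheless higher in brown. The median log2 difference of the 186 rows was 0.64 between brown and white, with 171 positive and 15 negative, while the median over all rows was -0.02. Between yellow and white it was 0.10, with 130 positive and 56 negative, against -0.03 over all rows. Between brown and yellow it was 0.53, with 172 positive, against 0.01. When FPKM was rescaled to TPM, the median over all rows moved to -0.20 in brown against white and to -0.22 in brown against yellow. The ribosomal protein medians were then 0.43 and 0.26, and that of yellow against white was 0.17. These copies are not independent of each other, so the counts of signs carry no p. Single libraries moved these medians. Brown against white had 0.28 without brown 3, 1.00 without brown 1 and 1.01 without white 3, and brown against yellow 0.18 without brown 3, 0.19 without yellow 2, 0.91 without brown 1 and 1.00 without yellow 3. The yellow against white median changed sign, to -0.37 without yellow 3, -0.10 without white 1 and -0.09 without white 2, and was 0.47 without white 3, 0.46 without yellow 2 and 0.22 without yellow 1. With the level of the muscle list as a covariate the 3 medians were 0.81, 0.60 and 0.20.

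As FPKM, 7 of 186 copies were higher in every brown than in every white library, 3.76% against 5.74% of all rows tested. For yellow against white this held for 1 copy against 5.09% of all rows, and for brown against yellow for 3 copies, 1.61% against 2.64%. As a share of summed FPKM, 80 of 186 copies were higher in every brown than in every white library, 43.0% against 2.67% of all rows. Between brown and yellow, 24 of 186 copies were higher in every brown library by share of summed FPKM, 12.9% against 0.817% of all rows. Between yellow and white 4 of 186 were, 2.15% against 3.81% of all rows. The copies make up a large part of summed FPKM and are not independent, so these counts by share largely repeat the summed shares given above. Those summed shares overlapped between brown and white once muscle rows were left out, and the counts were not repeated that way.

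Among the copies with the smallest p, several were minor ones at a few FPKM. The L23 copy LOC113098759 stood at 4.44, 4.93 and 4.90 FPKM in brown 1, 2 and 3, 1.85, 1.10 and 3.98 in yellow 1, 2 and 3, and 1.59, 0.378 and 2.42 in white 1, 2 and 3. All 3 brown libraries lay above all others, at a log2 difference of 1.32 ± 0.40 (SE) from white and 0.89 ± 0.40 from yellow, with limma-trend adjusted p of 0.788 and 1.00. It made up at most 0.445% of L23. The main copy of the paralog L7-like 1, LOC113062873, stood at 9.93, 22.4 and 16.5 FPKM in brown 1, 2 and 3, 9.68, 11.4 and 22.2 in yellow 1, 2 and 3, and 9.74, 7.42 and 6.39 in white 1, 2 and 3. Its log2 difference was 0.91 between brown and white and 0.73 between yellow and white. Brown 1 and yellow 1 lay near the level of white 1. The L27a copy LOC113043662 stood at 41.7, 69.8 and 50.1 FPKM in brown 1, 2 and 3, against 32.1, 33.8 and 4.01 in yellow 1, 2 and 3, a log2 difference of 1.58 ± 0.69 with an adjusted p of 1.00 in limma-trend. Yellow 3 was low for that copy, and the brown libraries lay above all 3 yellow ones. The minor copies LOC113042421 (L22-like 1), LOC113075571 (S11), LOC113104119 (L38) and LOC113058153 (L39) stayed under 20 FPKM everywhere.

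Summing the copies of each product changed little. The sums of 74 products were tested among 13779 product names. In brown against white 0 were called, against 0.0145% of all products, in yellow against white 0 against 0.0218%, and in brown against yellow 0 against 0%. No product sum had an unadjusted p under 0.05 in limma-trend, against 5.33%, 3.39% and 1.52% of all products in these comparisons. The voom test also gave 0 product sums at that level. The smallest p in brown against white belonged to L23, at a log2 difference of 1.06 ± 0.71 (SE), and to S25, at 1.32 ± 0.96, both with an adjusted p of 0.806 in limma-trend. S15a at 0.97, L18a at 0.89 and S3 at 0.87 followed, and 73 of 74 differences were positive. In brown against yellow L24 (0.68), S3 (0.73), L29 (0.77), S15a (0.76) and L18 (0.66) came first, at an adjusted p of 1.00 in limma-trend, with 71 of 74 positive. In yellow against white the first were L37a (1.37), L7-like 1 (0.54), L23 (0.57), S25 (0.52) and S10 (0.29), with 57 of 74 positive.

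The levels of the products spread widely. The highest mean sum was that of S2, a protein of the messenger RNA entry site, at 6744 FPKM over the 9 libraries. It was followed by SA, also known as the laminin receptor, at 5012 FPKM, by S18 at 4818, by L6 at 4758 and by S25 at 4631. S2 stood at 4763, 5714 and 15521 FPKM in brown 1, 2 and 3, 4439, 3405 and 8869 in yellow 1, 2 and 3, and 4216, 4069.6 and 9701 in white 1, 2 and 3. It was highest in the library numbered 3 of each color, where summed FPKM was highest too. The 3 colors overlapped for S2.

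The lowest products included diverged paralogs and an incomplete sum. L7-like 1 averaged 17.0 FPKM and L22-like 1 averaged 96.7 FPKM, both being diverged relatives of the standard proteins L7 and L22. L37a averaged 321 FPKM, S3a 1094 FPKM and L38 1365 FPKM. The S3a sum lacks a row described without the 40S prefix, and so do S15 and L36. L7-like 1 stood at 13.7, 22.7 and 17.7 FPKM in brown 1, 2 and 3, 14.7, 21.2 and 22.4 in yellow 1, 2 and 3, and 17.7, 15.4 and 7.64 in white 1, 2 and 3. The colors overlapped for this paralog too.

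Gene copies were numerous and mostly active. Of the 74 products, 40 had 2 copies, 22 had 3, 10 had 4, 1 had 1 and 1, S27, had 8. Of the 195 rows, 154 were at 10 FPKM or more in every library and 143 at 100 FPKM or more, 17 stayed under 10 FPKM everywhere, and 1, LOC113120713 (L7-like 1), was at 0 in all 9 libraries. Of the 9 rows that failed the filter, 8 never exceeded 4.62 FPKM. The other was the S9 copy LOC113079840, which reached 558 FPKM in 1 library only.

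Partner copies on chromosomes with numbers 25 apart mostly ran in step. Only chromosomes named by a plain number were counted, which left out copies such as those of S18 and L15 on LG44F. There were 51 pairs of partner copies, in 45 products, with both copies at a median of at least 50 FPKM. The median ratio was within 2-fold in 33 of them, and in 35 the log2 ratio varied by less than 1 over the 9 libraries. The copy on the lower-numbered chromosome was the higher in 32 pairs and the lower in 19. It was higher in all 9 libraries in 20 pairs and lower in all 9 in 16. The steadiest pair was L6, with LOC113106964 on chromosome 8 and LOC113052749 on chromosome 33, whose log2 ratio stayed between 0.27 and 0.38. L18a (LOC113048550 and LOC113064863) stayed between -0.11 and 0.04, L13 (LOC113051845 and LOC113106456) between 0.16 and 0.33, and S19 (LOC113116729 and LOC113059720) between 0.17 and 0.37. A gap could be large in every library, and the L3 copy LOC113042745 stood above LOC113047013 by a log2 ratio of 2.17 to 2.92. In 4 pairs the log2 ratio varied by more than 5, and these were copies of L35, S27, S23 and L21. Pairs of copies with other chromosome numbers were not counted this way, and steady pairs occurred among them too. For the L5 copies LOC113099357 on chromosome 6 and LOC113045649 on chromosome 27, the log2 ratio stayed between -0.06 and 0.26.

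Some copies held almost none of their product in some libraries and a larger share in others. A copy was called switching when its share of its product was at most 2% in 1 library and at least 10% in another, for products at 50 FPKM or more in every library. This held for 16 of 186 copies, in 12 of 71 products, 8.60%. It held for 60 of 1018 copies of other products with 2 to 8 copies, 5.89%, so copies of other gene families switched too. Over all other named copies it held for 96 of 2867, 3.35%. By another measure, 21 of the 186 copies had shares ranging over 25 percentage points or more, 11.3%. That was fewer than the 158 of 1018, 15.5%. The thresholds were set after the values were seen. Each switching copy was paired with the copy of its product whose share ran most opposite to its own over the 9 libraries. Only copies that reached a share of 10% in a library were considered. The pairs were thus picked from the same values, which favors pairs that exchange and keep a steady sum. How the authors counted reads that match more than 1 copy is not stated, so the split between near-identical copies is uncertain.

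No switch matched skin color exactly. For none of the 16 copies were the libraries at or below 2% exactly the 3 of a color, or all but the 3 of a color. Of the 16, 6 were low in every library except brown 3, and the other 10 were above 2% in at least 1 library of each color. Among these 10, LOC113081276 (L21) was low in white 1 and white 3 only, and LOC113111300 (L37a) in yellow 2 and yellow 3 only.

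L35, a protein at the exit of the peptide tunnel, held 4 of the 16 switching copies, which formed 2 exchanging pairs. LOC113038961 lies on chromosome 21 at 22350432 to 22352959, plus strand. It stood at 1419, 3810.1 and 4.44 FPKM in brown 1, 2 and 3, 1322, 838 and 5478 in yellow 1, 2 and 3, and 1056, 998 and 3263 in white 1, 2 and 3. It was near 0 in brown 3 alone. Its share of L35 was 58.9% and 71.5% in brown 1 and 2, 59.7% to 68.3% in yellow and 56.9% to 62.6% in white, against 0.0636% in brown 3.

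LOC113090293, on unplaced sequence, did the opposite. It stood at 5.56, 11.1 and 4393 FPKM in brown 1, 2 and 3, 4.52, 1.75 and 22.7 in yellow 1, 2 and 3, and 2.80, 3.59 and 8.43 in white 1, 2 and 3. It was high in brown 3 alone, at 62.9% of L35, and at most 0.283% elsewhere. The 4393 FPKM rested on 26491 reads, and the 4.44 FPKM of LOC113038961 in brown 3 on 28 reads. The 2 copies together made up 57.1% to 71.8% of L35 in every library.

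The other L35 pair lies on chromosome 46, with starts 350 kb apart. LOC113064400 (17089364 to 17093119, minus strand) stood at 5.35, 734 and 2572 FPKM in brown 1, 2 and 3, 4.73, 261 and 17.6 in yellow 1, 2 and 3, and 4.52, 319.6 and 866 in white 1, 2 and 3. LOC113064418 (17439819 to 17443574, plus strand) stood at 978, 771 and 11.7 FPKM in brown 1, 2 and 3, 883, 283 and 2497 in yellow 1, 2 and 3, and 792, 379 and 1075 in white 1, 2 and 3. The libraries fell into 3 patterns that crossed the colors: LOC113064418 alone in brown 1, yellow 1, yellow 3 and white 1, both in brown 2, yellow 2, white 2 and white 3, and LOC113064400 alone in brown 3. The pair together made up 28.2% to 42.9% of L35. That is the rest of L35 after the first pair, so this range only repeats that of the first pair.

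The summed L35 level gave no sign of these exchanges. It was 2407, 5326 and 6982 FPKM in brown 1, 2 and 3, 2214, 1384 and 8015 in yellow 1, 2 and 3, and 1855, 1701 and 5212 in white 1, 2 and 3. Brown 3, with another set of copies, lay between brown 2 and yellow 3. The 3 colors overlapped.

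**Figure D2:**
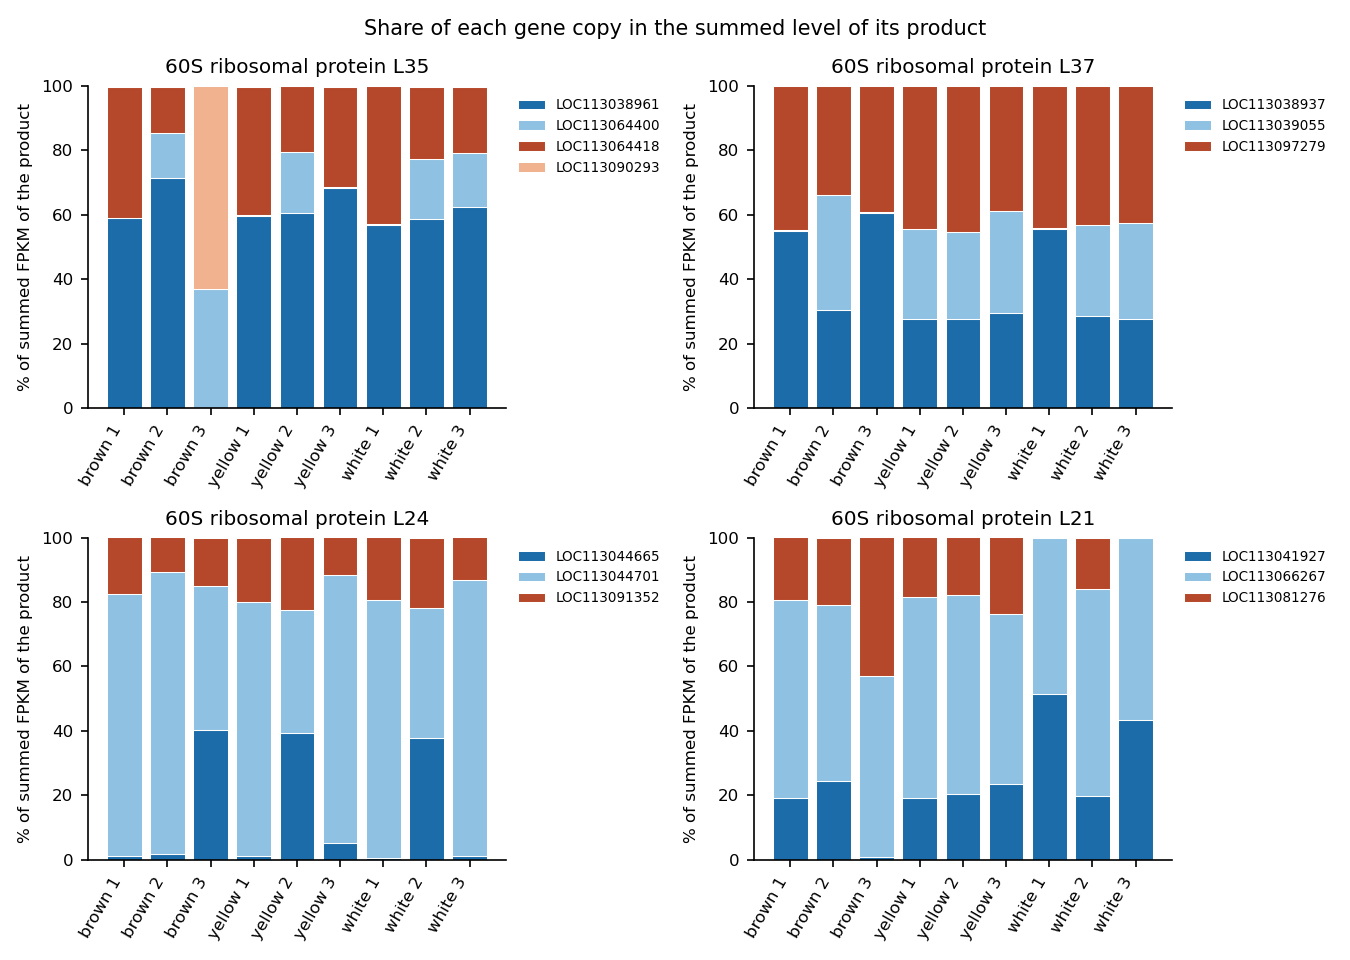
Stacked bars give each copy's percent of the summed FPKM of its product in the 9 libraries for L35, L37, L24 and L21. In brown 3, L35 is made up of LOC113090293 (62.9%) and LOC113064400 (36.8%), and the other 3 panels show copies that trade places in libraries of more than 1 color.

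None of the listed L35 copies was called between brown and white. The log2 difference was -2.29 ± 2.06 (SE) for LOC113038961, -1.69 ± 1.53 for LOC113064418 and 3.69 ± 2.06 for LOC113090293, with limma-trend adjusted p of 0.804, 0.805 and 0.788. Brown 3 decided all 3 values: without it they were 0.62, 0.34 and 0.70.

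Every L35 copy lay beside a gene for cytochrome b-c1 complex subunit 9, a small subunit of mitochondrial complex III, and that neighbour was present or missing in the same libraries. The pairs were singled out after the values were seen. The 2 genes of a pair lie on opposite strands and point away from each other, with 144 to 321 bases between them. LOC113090296, next to LOC113090293, stood at 0, 0.126 and 56.1 FPKM in brown 1, 2 and 3, at 0 in all 3 yellow libraries, and at 0, 0 and 0.174 in white 1, 2 and 3. It too was high in brown 3 alone. LOC113038962, next to LOC113038961, stood at 15.0, 20.3 and 1.03 FPKM in brown 1, 2 and 3, 19.5, 10.1 and 46.9 in yellow 1, 2 and 3, and 14.7, 14.8 and 40 in white 1, 2 and 3. It was lowest in brown 3.

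On chromosome 46 the neighbours split the libraries as L35 did. LOC113064401, next to LOC113064400, held 0.803%, 10.9% and 30% of the subunit 9 sum in brown 1, 2 and 3, 0.378%, 21.9% and 1.56% in yellow 1, 2 and 3, and 0.474%, 19.1% and 14.3% in white 1, 2 and 3. LOC113064419, next to LOC113064418, held 35.7%, 2.33% and 0.899% in brown 1, 2 and 3, 29.0%, 18.1% and 18.3% in yellow 1, 2 and 3, and 25.4%, 17.3% and 21.9% in white 1, 2 and 3. The exception was brown 2, where LOC113064418 held 14.5% of L35 while LOC113064419 held 2.33% of subunit 9. In libraries where an L35 copy reached 100 FPKM, its neighbour stood at 0.0712% to 1.48% of that copy's FPKM. Other rows beside switching copies varied with them too. The WD repeat-containing protein 38-like rows overlapping LOC113064400 and LOC113064418 correlated with them at 0.91 and 0.71, on log2(FPKM + 1). Beside the L21 copies LOC113041927 and LOC113081276, the nearest rows correlated at 0.80 and 0.85. The ceramide synthase 2-like row beside the S27 copy LOC113062228 did not, at -0.05. Whether reads of a copy were counted on its neighbour was not tested.

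**Figure D3:**
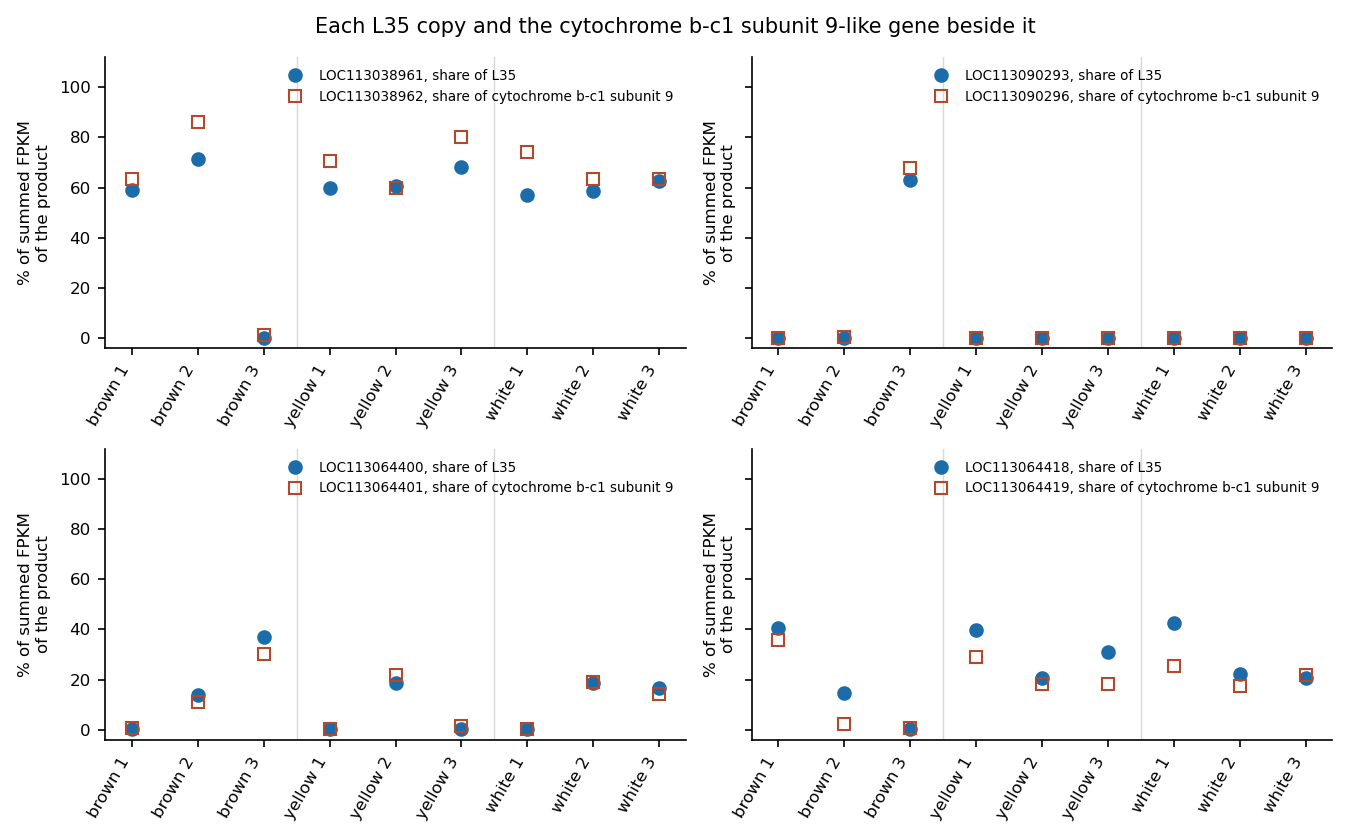
Each panel shows 1 L35 copy (filled circles, percent of L35) and the cytochrome b-c1 subunit 9-like gene beside it (open squares, percent of that product) in the 9 libraries. The 2 symbols are near 0 in the same libraries, brown 3 for LOC113038961 and all but brown 3 for LOC113090293, except that LOC113064419 is low in brown 2 (2.33%), where LOC113064418 holds 14.5%.

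Brown 3 also held copies of 5 other ribosomal proteins that stood far lower in the other 8 libraries. Over the whole table, 33 rows were at 10 FPKM or more in brown 3 with every other library at 5% of that or less, and 6 of them were ribosomal protein copies. In the other 8 libraries the count was 0 to 2, and 0 of those rows were ribosomal protein copies. Brown 3 had 4976 rows at 10 FPKM or more, 174 of them ribosomal proteins. Of the 33 rows, 23 lie on unplaced sequence, 69.7%, against 31.1% of the whole table, and of the 6 ribosomal protein copies 4 do. The reverse, a row at 10 FPKM or more in the other 8 libraries and at 5% or less of their lowest in brown 3, held for 4 rows, and 2 were the L35 copies LOC113038961 and LOC113064418. Counted the same way, rows missing from a single library numbered 3 in yellow 1, 1 in yellow 2, 1 in white 2 and 0 in the rest. The yellow 2 row was the S23 copy LOC113110805. Of the 33 rows high in brown 3 alone, 27 were not ribosomal proteins and had varied descriptions. The highest was oleosin-B4-like (LOC113079072), at 436 FPKM in brown 3. Others were protein S100-A1-like, interleukin-8-like, calpastatin-like and several uncharacterized rows. Also among them were elongation factor 1-delta-like (LOC113080265), a protein of translation, and H/ACA ribonucleoprotein complex subunit 3-like (LOC113096285), a protein of ribosomal RNA modification.

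The L23a copy LOC113079992, on unplaced sequence, stood at 1.54, 1.21 and 991 FPKM in brown 1, 2 and 3, 2.29, 0.789 and 5.20 in yellow 1, 2 and 3, and 1.38, 1.24 and 2.13 in white 1, 2 and 3. L23a sits at the tunnel exit, beside L35. This copy held 21% of L23a in brown 3 and at most 0.148% elsewhere, and the copy LOC113064183 held 26.7% there, against 39.3% to 52.2% in the other 8 libraries. Its log2 difference between brown and white was 2.80 ± 1.93 (SE), with a limma-trend adjusted p of 0.790, and -0.11 without brown 3.

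The L38 copy LOC113074392, on unplaced sequence, stood at 1.08, 1.89 and 409 FPKM in brown 1, 2 and 3, 0.265, 0.616 and 0 in yellow 1, 2 and 3, and 0.955, 0.743 and 1.90 in white 1, 2 and 3. L38 is known in mouse for its part in the translation of Hox messenger RNAs. In brown 3 this copy held 21.7% of L38, and LOC113080025 held 20.8%, against 35.9% to 52.9% elsewhere. The log2 difference between brown and white was 2.66 ± 1.62 (SE), with an adjusted p of 0.788 in limma-trend, and 0.19 without brown 3.

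The L13a copy LOC113117491 lies on chromosome 17 at 18358471 to 18360727, plus strand. It stood at 3.96, 1.95 and 533 FPKM in brown 1, 2 and 3, 1.91, 2.15 and 2.02 in yellow 1, 2 and 3, and 2.39, 0.992 and 2.93 in white 1, 2 and 3. Its share of L13a was 16.7% in brown 3 and at most 0.302% elsewhere. Its log2 difference between brown and white was 2.73 ± 1.58 (SE), with an adjusted p of 0.788 in limma-trend, and 0.36 without brown 3. Together with LOC113117388, LOC113117491 made up 32.7% of L13a in brown 3 and 19.4% to 56.5% in the others, so this pair's sum was not steady.

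The S24 copy LOC113112543 lies on chromosome 13 at 9105265 to 9111582, minus strand. It stood at 6.36, 9.18 and 829 FPKM in brown 1, 2 and 3, 4.71, 2.66 and 12.9 in yellow 1, 2 and 3, and 6.36, 6.13 and 14.1 in white 1, 2 and 3. It held 19.2% of S24 in brown 3 and at most 0.657% elsewhere. The copy LOC113112616 held 24.96% there, against 38.7% to 58.2% in the other 8 libraries. The log2 difference of LOC113112543 between brown and white was 2.10 ± 1.51 (SE), with an adjusted p of 0.790 in limma-trend, and -0.10 without brown 3.

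The S9 copy LOC113079840 had the same pattern but passed 1 FPKM in 1 library only and so was not tested. It stood at 0.470, 0.0960 and 558 FPKM in brown 1, 2 and 3, 0.443, 0.206 and 0.517 in yellow 1, 2 and 3, and 0.532, 0.166 and 0.529 in white 1, 2 and 3. The brown 3 value rested on 4286 reads. With LOC113099610 it made up 39.8% of S9 in brown 3 and 34.6% to 41.5% in the others, so the sum of the pair in brown 3 lay within the range of the other libraries.

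**Figure D4:**
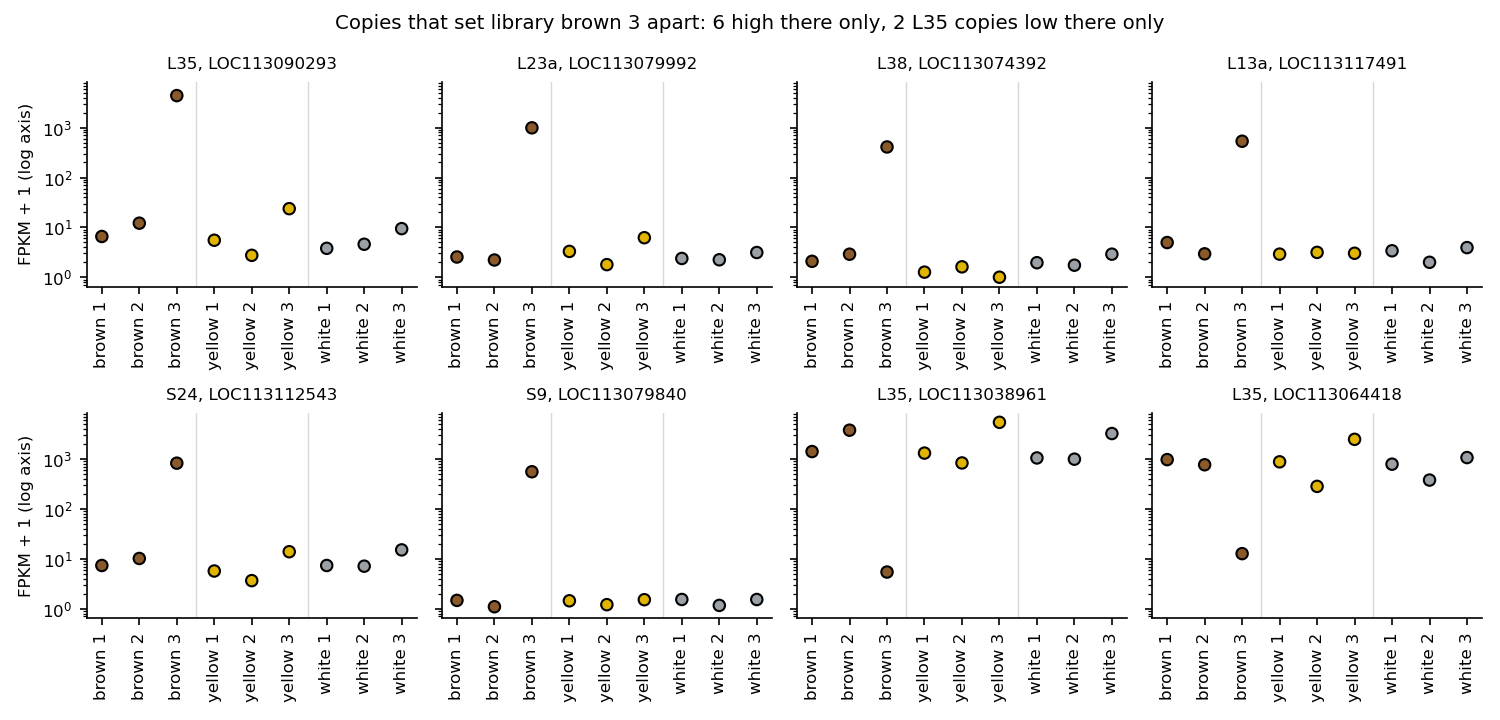
FPKM + 1 on a log axis in the 9 libraries for the 6 ribosomal protein copies that were high in brown 3 alone and the 2 L35 copies that were near 0 there alone. Each panel shows brown 3 apart from the other 8 libraries, for example 558 FPKM against at most 0.532 FPKM for the S9 copy.

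L21 switched in white skin as well. LOC113041927, on chromosome 24 at 834635 to 836823, plus strand, stood at 292, 868 and 34.7 FPKM in brown 1, 2 and 3, 267, 192 and 1037 in yellow 1, 2 and 3, and 733, 212 and 1391 in white 1, 2 and 3. LOC113081276, on unplaced sequence, stood at 295, 747 and 1953 FPKM in brown 1, 2 and 3, 254, 169 and 1038 in yellow 1, 2 and 3, and 0.609, 171 and 1.21 in white 1, 2 and 3. It was near 0 in white 1 and white 3 only, where LOC113041927 held 51.4% and 43.4% of L21. In the 6 libraries with both copies at similar levels, LOC113041927 held 19.2% to 24.4% and LOC113081276 15.9% to 23.7%. In brown 3 the shares were 0.765% and 43.1%. The 2 copies summed to 35.6% to 51.5% of L21 throughout.

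LOC113081276 had the smallest p of any ribosomal protein copy in brown against white. Its log2 difference was 6.48 ± 1.62 (SE) between brown and white and 5.39 ± 1.62 between yellow and white, with limma-trend adjusted p of 0.788 and 1.00. When the share of a copy against the other copies of its product was tested over 19483 rows, 0 of 184 ribosomal protein copies were called in brown against white, 0 in yellow against white and 0 in brown against yellow, with 4, 2 and 1 at an unadjusted p under 0.05. Of all rows 0.0103%, 0.0103% and 0.00513% were called. The unadjusted counts were 2.17%, 1.09% and 0.543% of the 184 copies, against 6.85%, 3.97% and 2.4% of all rows at that level. After LOC113081276, the smallest p in brown against white belonged to LOC113112616 (S24) at -0.95, LOC113058153 (L39) at -1.18, LOC113041927 (L21) at -2.78 and LOC113117226 (S28) at -1.04. In yellow against white they belonged to LOC113084878 (L37a) at -1.52, LOC113110805 (S23) at -2.89, LOC113107657 (L9) at 0.82 and LOC113045313 (L23) at -0.83. White 2 decided the outcome for LOC113081276. Without white 2, the only white library that held LOC113081276, its share was called in brown against white, at a log2 difference of 8.70 and a limma-trend adjusted p of 0.00511. In yellow against white it was then called at 8.14, with an adjusted p of 0.00859. White was then represented by 2 libraries.

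L24, a protein that reaches across to the 40S subunit, switched between copies on chromosome 26 that start 908 kb apart. LOC113044665 (22931274 to 22934485, plus strand) stood at 18.0, 38.0 and 1385 FPKM in brown 1, 2 and 3, 14.9, 328 and 124 in yellow 1, 2 and 3, and 5.52, 346 and 24.8 in white 1, 2 and 3. Its share of L24 was 40.1% in brown 3, 39.2% in yellow 2 and 37.7% in white 2, 1 library of each color, and 0.473% to 5.22% elsewhere. LOC113044701 (23838836 to 23842040, minus strand) held 38.4% to 44.8% in those 3 libraries and 78.6% to 87.3% in the other 6. The pair summed to 77.6% to 89.3%. The neighbour of LOC113044665, 34 bases away on the opposite strand, is a centrosomal protein of 97 kDa-like gene. It stood at 0.585, 3.03 and 7.40 FPKM in brown 1, 2 and 3, 0.416, 5.01 and 1.82 in yellow 1, 2 and 3, and 0.460, 3.71 and 0.983 in white 1, 2 and 3. The same 3 libraries were highest, followed by brown 2.

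L37, a zinc-binding protein of the large subunit, switched between copies on chromosome 21 that start 2692 kb apart. LOC113039055 (24381021 to 24383600, minus strand) stood at 7.19, 1520.1 and 16.6 FPKM in brown 1, 2 and 3, 498, 323 and 1676 in yellow 1, 2 and 3, and 3.62, 447 and 1019 in white 1, 2 and 3. It was near 0 in brown 1, brown 3 and white 1, at 0.241% to 0.391% of L37, and held 27.0% to 35.7% in the other 6 libraries. LOC113038937 (21688897 to 21691467, plus strand) held 54.9%, 60.5% and 55.6% in those 3 libraries and 27.6% to 30.4% in the other 6. The pair summed to 54.8% to 66.1%. In brown against yellow the log2 difference in share was -4.36 ± 2.23 (SE) for LOC113039055 and 1.24 ± 0.56 for LOC113038937, both with a limma-trend adjusted p of 1.00.

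Of the other switching copies, LOC113062228 (S27), LOC113110805 (S23) and LOC113111300 (L37a), none matched skin color exactly. The S27 copy LOC113062228 on chromosome 44 stood at 189, 463 and 77.0 FPKM in brown 1, 2 and 3, 16.2, 122 and 5.77 in yellow 1, 2 and 3, and 1.34, 5.82 and 398 in white 1, 2 and 3. Its highest library was in brown and its lowest in white, but white 3 lay above brown 1 and the colors overlapped. The S23 copy LOC113110805 on chromosome 11 was near 0 in yellow 2 only, at 0.651 FPKM, against 86.8 and 164 FPKM in yellow 3 and yellow 1, 59.8 to 707 FPKM in brown and 141 to 265 FPKM in white. S23 lines the decoding site.

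L37a had the lowest sum of the standard proteins. It was 92.2, 451 and 571 FPKM in brown 1, 2 and 3, 179.9, 238 and 845 in yellow 1, 2 and 3, and 52.3, 115 and 343 in white 1, 2 and 3. The copy LOC113055574 on chromosome 36 stood at 40.7, 81.4 and 76.9 FPKM in brown 1, 2 and 3, 39.3, 158 and 91.7 in yellow 1, 2 and 3, and 12.2, 17.0 and 31.9 in white 1, 2 and 3. Every brown and every yellow library lay above every white one. The log2 difference was 1.70 ± 0.59 (SE) between brown and white and 2.08 ± 0.59 between yellow and white, with limma-trend adjusted p of 0.788 and 1.00. LOC113111262 on chromosome 11, the main copy in 7 libraries, stood at 29.7 FPKM in brown 1 and 70.6 FPKM in yellow 2, where LOC113055574 was higher. LOC113111300, also on chromosome 11, ranged between 3.2% and 8.33% of L37a in brown, 1.75% and 7.58% in yellow, and 3.78% and 11.2% in white. It was at or below 2% in yellow 2 and yellow 3 only. Its median level was 13.0 FPKM, and the L37a sum ran from 52.3 FPKM in white 1 to 845 FPKM in yellow 3. A change of its share thus need not be a change of its level. The share of the unplaced copy LOC113084878 had a log2 difference of 2.12 ± 0.60 in brown against yellow, with an adjusted p of 1.00 in limma-trend.

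The mix of products differed between libraries, and 2 of them stood apart. Brown 2 and yellow 3 were both the outermost libraries for 47 of the 74 products by share of the ribosomal protein sum, highest for 20 and lowest for 27. The next pair, yellow 2 and white 1, was outermost for 16. S12 took 0.937%, 0.352% and 0.797% of the sum in brown 1, 2 and 3, 1.25%, 1.30% and 0.485% in yellow 1, 2 and 3, and 1.20%, 1.37% and 0.832% in white 1, 2 and 3. L3 and L10, which lie near the peptide-joining center and the transfer RNA path, and S9 were also lowest in brown 2 and yellow 3. S25 took 1.58%, 3.85% and 2.05% in brown 1, 2 and 3, 1.50%, 1.42% and 3.63% in yellow 1, 2 and 3, and 1.21%, 1.46% and 1.88% in white 1, 2 and 3. S28, S21 and S26 shared this direction. Across the 74 products, the Spearman correlation between a library's deviation and mean gene length was -0.38 in brown 2 and -0.39 in yellow 3, and lay between -0.27 and 0.45 in the others.

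These 2 libraries also had the fewest genes above 0, 39217 in brown 2 and 36617 in yellow 3, against 42130 to 48012 in the others. Brown 2 had 5.40% of summed FPKM on the mitochondrial genome, and the others 1.61% to 2.97%. The part of RNA quality or depth in these shares was not tested. L5, which carries the small 5S ribosomal RNA into the large subunit, was the steadiest product, at 2.23% to 2.40% of the sum in all 9 libraries.

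**Figure D5:**
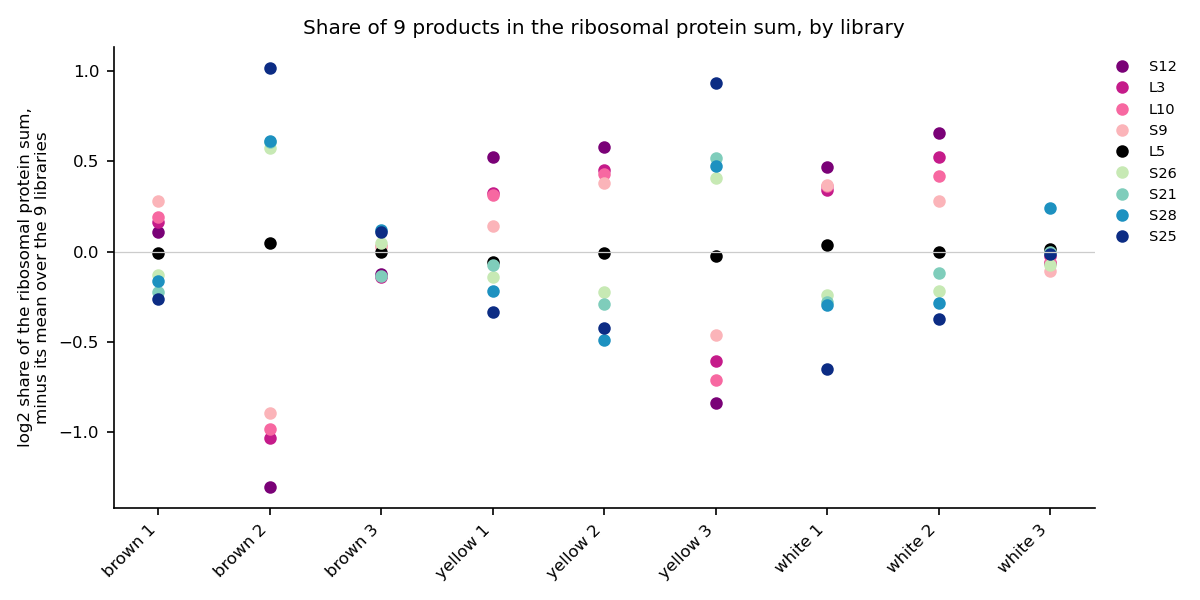
Log2 share of 9 products in the ribosomal protein sum, minus the product's mean over the 9 libraries. In brown 2 and yellow 3, S12, L3, L10 and S9 lie lowest and S25, S28, S21 and S26 highest, while L5 stays near 0 everywhere.

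No row of the other translation lists was called by limma-trend. Of 14 rows for the acidic stalk proteins and ubiquitin-ribosomal protein fusions, which belong to the same ribosome under other names, 0 were called in any of the 3 comparisons by limma-trend, with a median log2 difference of 0.95 in brown against white and 0.27 in yellow against white, and 0.68 in brown against yellow. The same measure was 0.64, 0.10 and 0.53 for the ribosomal protein copies. Over 7 rows for small translation-linked proteins, such as translationally-controlled tumor protein, the 3 medians were 0.36, -0.16 and 0.46. Mitochondrial ribosomal proteins had a median of 0.05 in brown against white over 115 rows tested, initiation factors 0.03 over 125, elongation factors 0.12 over 20 and ribosome assembly factors 0.06 over 45. The median over all rows was -0.02. In yellow against white these 4 medians were -0.15, 0.02, -0.18 and -0.03, and 0 rows of each list were called. In brown against yellow they were 0.22, 0.06, 0.28 and 0.12, against 0.01 over all rows, again with 0 called. The difference between lists was not tested. For cell type markers, 0 rows of any list were called by limma-trend, and the median in brown against white was 0.55 over 32 keratin rows, -0.60 over 96 skeletal muscle rows, -0.54 over 15 dermal fibroblast rows, 0.53 over 5 erythrocyte rows, 0.34 over 12 mucous cell rows, 0.07 over 13 leukocyte rows and 1.47 over 3 melanophore rows. In the same order, the medians in brown against yellow were 0.15, 1.08, -0.31, -0.24, -0.47, -0.44 and 0.41. Those in yellow against white were 0.35, -1.91, -0.33, 0.62, 0.47, 0.38 and 0.71. Of these lists, the muscle list alone was set against the ribosomal protein values, by leaving its rows out of the total and by the covariate fit. The part of the others was not tested.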

How the data were processed

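The labels' protocols name SMARTER mRNA-Seq as the library kit for the back-skin RNA. The authors deposited 1 FPKM table per library. The submitters' processing notes name the aligner HISAT2 and the assembler StringTie, and how strand and shared reads were handled is not stated. Gene positions are those of the tables, and all 195 ribosomal protein rows had the same start in RefSeq's ASM336829v1. Dividing out gene length and the size of 1 read gave whole reads for 100% of values (within 0.001 reads). Nothing beyond the labels says that replicates came from separate fish, so p-values measure the spread between these samples. Same-numbered yellow and white libraries deviated together in all 3 pairs (correlation 0.22 to 0.77), as judged from the data and not from the labels. White 1 and yellow 2, numbered differently, also correlated at 0.51.

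Rows, product sums and copy shares were each fitted with limma-trend (limma 3.58.1, R 4.3.3) on log2(FPKM + 1) over all 9 libraries, after a filter of 1 FPKM in 3 libraries, with Benjamini-Hochberg adjustment over each table and a threshold of 0.05. A copy share is the log2 level of a copy minus that of the other copies of its product. Python 3.11.15, pandas 2.3.3, numpy 2.4.6 and matplotlib 3.10.9 did the rest. The fits were also run on simulated data with known changes. There, all libraries shared the same gene averages apart from those changes, unlike the libraries here, and no result rests on that run. Named genes were the 7 listed copies, any called member, the 5 smallest p per fit and comparison, the 10 copies with the widest range of share, and the 5 highest and 5 lowest products, plus the switching copies and their neighbours, which were added after values were seen. Members and lists were chosen with earlier results of these data known.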

Additional observations from a re-analysis of the deposited data

How the results depend on the processing

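The ribosomal protein share of summed FPKM depended on what was counted. By recovered reads it was 16.3% in brown, 12.2% in yellow and 10.5% in white. With every other ribosomal protein row added, an alternative chosen after seeing the data, it was 38.1% in brown, 30.96% in yellow and 26.97% in white. Without the muscle list in the total it was 36.6% in brown, 30.5% in yellow and 28.9% in white, and the colors overlapped. Leaving out 1 library at a time gave 31.0% to 35.6% in brown, 25.4% to 29.1% in yellow and 22.5% to 24.9% in white.

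No copy or product sum was called under any alternative. Copy shares called ranged between 0 and 1 on leaving out single libraries, the 1 being LOC113081276 without white 2 in brown against white and in yellow against white. With a replicate block 0 copies were called, and 24, 3 and 11 had an unadjusted p under 0.05 in brown against white, yellow against white and brown against yellow. With the muscle covariate these were 35, 7 and 1. The share of all rows at that level was not counted under either setting, so these counts cannot be set against it. Libraries with the same number correlated at 0.22 to 0.77 between yellow and white, and at -0.30 to 0.46 where brown was compared. Differently numbered yellow and white libraries ranged from -0.69 (white 1 with yellow 3) to 0.51 (white 1 with yellow 2). Brown 1 with yellow 2 reached 0.61. These ranges overlap, so a pairing by number is not established for any color. The block changed no ribosomal protein call in yellow against white.

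Several directions reversed. Without the 3 libraries numbered 3, the brown against white log2 difference was 1.18 for LOC113038961 and 0.66 for LOC113064418. Over the fits that left out 1 library, it ranged from -4.10 to 0.62 for LOC113038961, -2.79 to 0.34 for LOC113064418, -0.11 to 4.30 for LOC113079992 and -0.10 to 3.31 for LOC113112543, and each changed sign without brown 3. In yellow against white the product sums ranged from -0.24 to 0.70 for S10, -0.43 to 1.13 for S25 and -0.053 to 0.99 for L23, and each changed sign without yellow 3. The cause was not tested beyond the per-library values given above. Of 979 values of 52 named results under the alternatives, 968 kept their direction and side of the threshold. The voom test was not run on copy shares. Copies at a few FPKM rest on few reads, which limits their precision, and 3 libraries per color limit all tests.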
